A study of Mus musculus with 8 samples.

Results

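To follow mouse embryonic stem cells (mESCs) through 11 days of culture in 2iJ+B-A, gene counts were compared between the 3 unsorted libraries of this condition, from days 2, 5 and 11. They are 3 of the 8 libraries of the series, and were chosen by their treatment and day labels. The cells were of the R1 line, an established mESC line, and all 3 groups had the same agents. These were CHIR99021 at 3 µM (an inhibitor of GSK3) and PD0325901 at 1 µM (an inhibitor of MEK), together called 2i, a JAK inhibitor at 2.0 µM, BMP4 at 10 ng/ml and ALK5 inhibitor II (Alk5i) at 10 µM, in medium with serum and without feeder cells. The labels give these days, while the design text speaks of 2 days of culture. A pair of R1 libraries of day 5 is used beside them, 1 in 2i alone and 1 in 2i with the JAK inhibitor (2iJ). The other 3 libraries were a day 2 sort of 2iJ+B-A cells positive for a Cdx2-GFP reporter, made in the line CDX2-GFP and not in R1, and mesoderm progenitors of days 3 and 4 made from R1, for which the labels give no treatment.

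BMP4 is a ligand that acts through SMAD transcription factors and switches on the Id genes. The ALK5 inhibitor blocks the receptors of Activin and Nodal, and the JAK inhibitor blocks the signal of LIF to STAT3. The mouse blastocyst holds the epiblast, from which mESCs derive, the trophectoderm (TE), which forms the placenta and is marked by Cdx2, Gata3 and the simple keratins, and the primitive endoderm, which forms the yolk sac linings and is marked by Gata6, Gata4 and Sox17. Parietal endoderm, a derivative of the primitive endoderm, lays down a thick basement membrane of type IV collagen and laminin.

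Each day had 1 library, so the day and the library cannot be told apart, and no test between days was possible. In place of a test, differences are given as fold limits on CPM (a gene's share of all gene counts of its library, on 1 scale for all libraries), on the scale log2(CPM + 0.5), for the 11148 genes that reached 5 CPM on at least 1 day. Intervals of single genes are 95% intervals that cover counting error only. Gene counts summed to 24532587, 31453888 and 30721545 on days 2, 5 and 11. Ribosomal protein genes held 9.47% of counts on day 2 and 7.34% and 6.98% on days 5 and 11. Their part in the results was not tested.

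The mESC markers Pou5f1, Sox2 and Nanog were expressed at similar levels on all 3 days. Pou5f1 (Oct4) had 866, 896 and 1075 CPM on days 2, 5 and 11. Sox2 had 597, 514 and 560 CPM, and Nanog had 581, 506 and 538 CPM. None of these 3 genes reached a 2-fold difference between any 2 days. Among 19 tested members of the core and naive pluripotency list, 1 was early transient (Dppa3) and 1 was early rising (Utf1), and the other members were in none of the classes defined next. The summed level of the list was 5855, 5884 and 6132 CPM on days 2, 5 and 11. It was lower on each day than in 2i (8148 CPM) and 2iJ (7186 CPM) on day 5.

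Most differences arose between days 2 and 5, and most of them were upward. Between these days 650 genes were at least 2-fold higher on day 5 (5.83% of those tested) and 107 were at least 2-fold lower (0.96%), or 6.79% together. From day 5 to day 11, 184 genes were at least 2-fold higher (1.65%) and 278 were lower (2.49%), or 4.14% together, so the second step was mostly downward. Between the ends of the course 759 genes were higher on day 11 (6.81%) and 331 were lower (2.97%), or 9.78% together. A difference of at least 4-fold was found for 100, 59 and 225 genes in these 3 comparisons. For scale, 102 of 10516 genes (0.97%) were 2-fold apart between 2i and 2iJ on day 5, 65 of them higher in 2iJ (0.618%) and 37 lower (0.352%), and 6 genes were 4-fold apart. This pair differs by the JAK inhibitor as well as by library, so it is no measure of replicate spread. Set against 2iJ over 11342 genes, day 2 of 2iJ+B-A had 533 genes 2-fold higher (4.70%) and 460 lower (4.06%), 8.76% together. Day 5 had 991 higher (8.74%) and 357 lower (3.15%), 11.9% together, and day 11 had 869 higher (7.66%) and 457 lower (4.03%), 11.7% together. The excess of higher over lower genes was larger on both later days than on day 2.

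**Figure D1:**
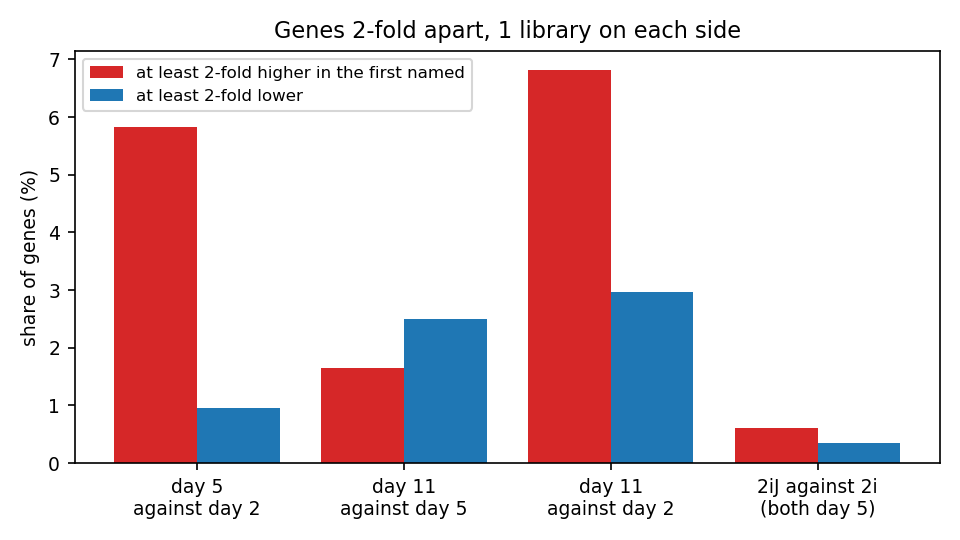
Share of genes (%) at least 2-fold higher (red) or lower (blue) in the first named of 2 libraries, for the 3 pairs of days in 2iJ+B-A and for 2iJ against 2i on day 5. The step from day 2 to day 5 has 5.83% of genes higher and 0.96% lower, and the pair of 2i libraries has 0.97% in both directions together.

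The genes were then separated into classes by their 2 steps, each with a limit of 2-fold. Early transient genes were higher on day 2 than on both later days, and there were 85 of them (0.762% of genes tested). Peak genes were higher on day 5 than on days 2 and 11, and numbered 129 (1.16%). Late rising genes were higher on day 11 than on both earlier days (164, 1.47%), and late falling genes were lower on day 11 than on both (87, 0.78%). Early rising genes were lower on day 2 than on both later days (396, 3.55%). Only 8 genes were low on day 5 alone (0.0718%). The classes overlap. Where a gene took 2 steps in 1 direction, 70 genes were both early and late rising and 9 were both early transient and late falling. Where the steps were opposite, 15 peak genes were also early rising. Another 6 peak genes were also late falling, Hand1 among them. In all, 768 genes were in at least 1 class. The smaller of the 2 log2 steps of the gene just inside a class was between 1.00 and 1.05, and that of the gene just outside was between 0.84 and 1.00.

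**Figure D2:**
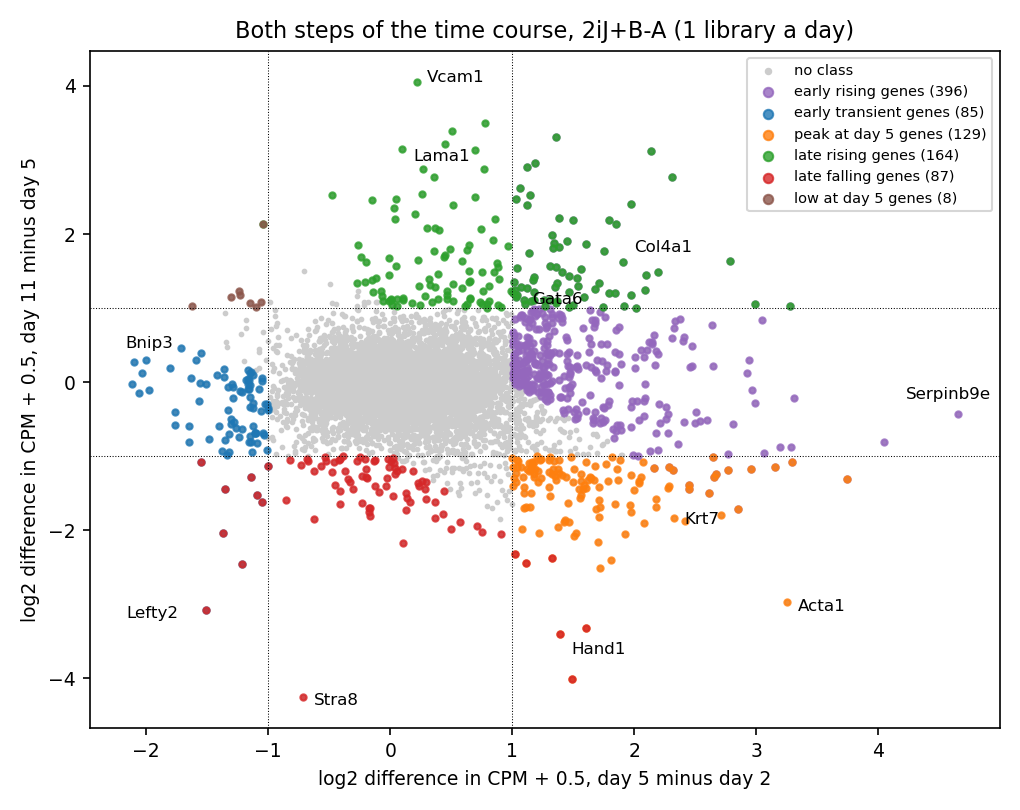
Each point is 1 of the 11148 genes, with the log2 difference from day 2 to day 5 across and that from day 5 to day 11 upward, both on log2(CPM + 0.5), coloured by class, with dotted lines at the 2-fold limits. Genes of 2 classes carry the colour drawn last. Stra8 and Hand1 lie far down, with differences of -4.26 and -3.40 from day 5 to day 11, and Vcam1 lies at the top, at 4.06.

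The class names describe the order of 3 libraries. A straight line on log2(day) was the one test that these libraries allowed, and it leaves 1 residual degree of freedom, so that the spread is taken from the departure of the middle day from the line. A gene that peaks on day 5 cannot pass it. With edgeR's quasi-likelihood test, 302 of 15675 genes passed at an adjusted p-value of 0.05 (1.93%), of which 232 rose (1.48%) and 70 fell (0.447%). When the slope was fitted with all 8 libraries of the series, 0 genes passed in edgeR (0.00%, the lowest adjusted p-value was 0.144 and 1004 genes had an unadjusted p-value under 0.05), so every rise or fall named here is lost in that fit. With the 2i and 2iJ libraries in the fit 465 genes passed (2.86%), and DESeq2 on the 3 libraries called 580 genes (3.70%).

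The late rising genes held most of the primitive endoderm list. Of its 22 members 19 were tested, and 17 of these were late rising (1.47% of all genes tested were). All 19 were at least 2-fold higher on day 11 than on day 2 (6.81% of all genes tested), and their median log2 difference was 2.91, against 0.04 over all genes. Members count as tested by their highest day, which for a rising gene is day 11. With no minimum CPM, 18 of 22 members were late rising and 21 were above day 2 on day 11. On the slope test, 16 of 19 passed and rose (1.48% of all genes did). Dab2, Hnf4a and Amn did not pass. The slope was fitted to the same 3 libraries that set the classes. The list was also chosen with earlier results of these data known, so these shares are no independent support for the rise. The type IV collagen genes had the lowest adjusted p-value of the whole test.

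Col4a1 and Col4a2 encode the 2 chains of the main collagen of basement membranes, and sit head to head on opposite strands of chromosome 8 (NCBIM37: Col4a1 from 11198423 to 11312826, Col4a2 from 11312805 to 11449287). Col4a1, named here after its values were seen because it shares a promoter with Col4a2, had 2822, 13648 and 40978 counts on days 2, 5 and 11, which is 434 and 1334 CPM on the last 2. Its level was 36.1 CPM in 2i and 41.5 CPM in 2iJ. It was 11.6-fold higher on day 11 than on day 2 (95% interval 11.2 to 12.1), and its slope was 1.43 log2 units per doubling of the day (standard error 0.0856, edgeR adjusted p-value 0.00127). Col4a2 had 59.1, 272 and 759 CPM, against 14.4 and 15.3 CPM in 2i and 2iJ. It was 12.8-fold higher on day 11 than on day 2 (12.2 to 13.6), with an edgeR adjusted p-value of 0.00127. Both genes were more than 2-fold higher at each step, and were counted by strand.

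Whether shared promoter bases had a part in the rise of both genes was not tested. The promoters of this pair are shown because they overlap. They are the RefSeq windows from 250 bases before to 50 bases after each start on GRCm38.p6, a later build than that of the counts. The capitals mark the 78 bases that both windows share, read on opposite strands, and the start sites are 21 bases apart.
Col4a1, chr8:11312777-11313076, minus strand: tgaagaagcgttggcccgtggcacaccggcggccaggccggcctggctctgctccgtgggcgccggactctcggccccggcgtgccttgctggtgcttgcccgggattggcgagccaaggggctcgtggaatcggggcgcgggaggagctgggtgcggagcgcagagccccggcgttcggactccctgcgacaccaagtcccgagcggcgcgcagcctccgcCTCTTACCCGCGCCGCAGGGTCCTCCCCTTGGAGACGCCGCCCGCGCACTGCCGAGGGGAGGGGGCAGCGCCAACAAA
Col4a2, chr8:11312555-11312854, plus strand: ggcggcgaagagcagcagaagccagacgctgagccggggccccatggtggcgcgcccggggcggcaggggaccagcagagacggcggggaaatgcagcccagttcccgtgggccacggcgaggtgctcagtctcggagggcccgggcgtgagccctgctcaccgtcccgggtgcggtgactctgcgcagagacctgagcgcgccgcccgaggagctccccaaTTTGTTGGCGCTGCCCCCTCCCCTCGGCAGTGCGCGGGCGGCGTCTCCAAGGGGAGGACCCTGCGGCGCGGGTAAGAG

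Laminin and endoderm transcription factors had the same order of days. Lama1, a laminin chain of the embryonic basement membrane on chromosome 17, had 35.0, 60.0 and 444 CPM, and most of its change lay in the second step (7.40-fold, 7.05 to 7.77). Its edgeR adjusted p-value was 0.0183. Gata4, a GATA factor of the primitive endoderm, had 5.18, 15.6 and 72.8 CPM and rose 14.1-fold over the course (11.8 to 17, edgeR adjusted p-value 0.00502). Its level in 2iJ on day 5 was 5.41 CPM, close to that of 2iJ+B-A on day 2. Sox17, an SRY-box factor of endoderm, had 1.06, 5.12 and 24.1 CPM (edgeR adjusted p-value 0.00682). Sox7, its relative in parietal endoderm, had 0.693, 2.61 and 13.9 CPM (edgeR adjusted p-value 0.0121). Fst (follistatin), which binds and neutralises Activin, had 1.59, 4.26 and 36.7 CPM (edgeR adjusted p-value 0.0121). The visceral endoderm products Afp, Apoa1 and Ttr stayed under 2 CPM on each day.

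Gata6, an early factor of the primitive endoderm that is also a marker given for these libraries, had 3.67, 8.30 and 16.0 CPM on days 2, 5 and 11. Each day stood above the one before it, and all 3 stood above 2i (0.888 CPM) and 2iJ (2.02 CPM). It was 2.26-fold higher on day 5 than on day 2 (1.77 to 2.91) and 1.93-fold higher on day 11 than on day 5 (1.66 to 2.26), which leaves it just outside the late rising class. Its slope was 0.85 log2 units per doubling of the day (standard error 0.163, edgeR adjusted p-value 0.0450, or 0.0798 with 2i and 2iJ in the fit, where the call was lost). The sorted Cdx2-GFP-positive cells of day 2 had more Gata6 (32.8 CPM) but little Gata4 (0.757 CPM) and Sox17 (1.16 CPM). In mesoderm progenitors Gata6 had 19.9 and 98.7 CPM and Gata4 96.6 and 226 CPM, while Sox17 had 2.07 and 2.10 CPM.

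**Figure D3:**
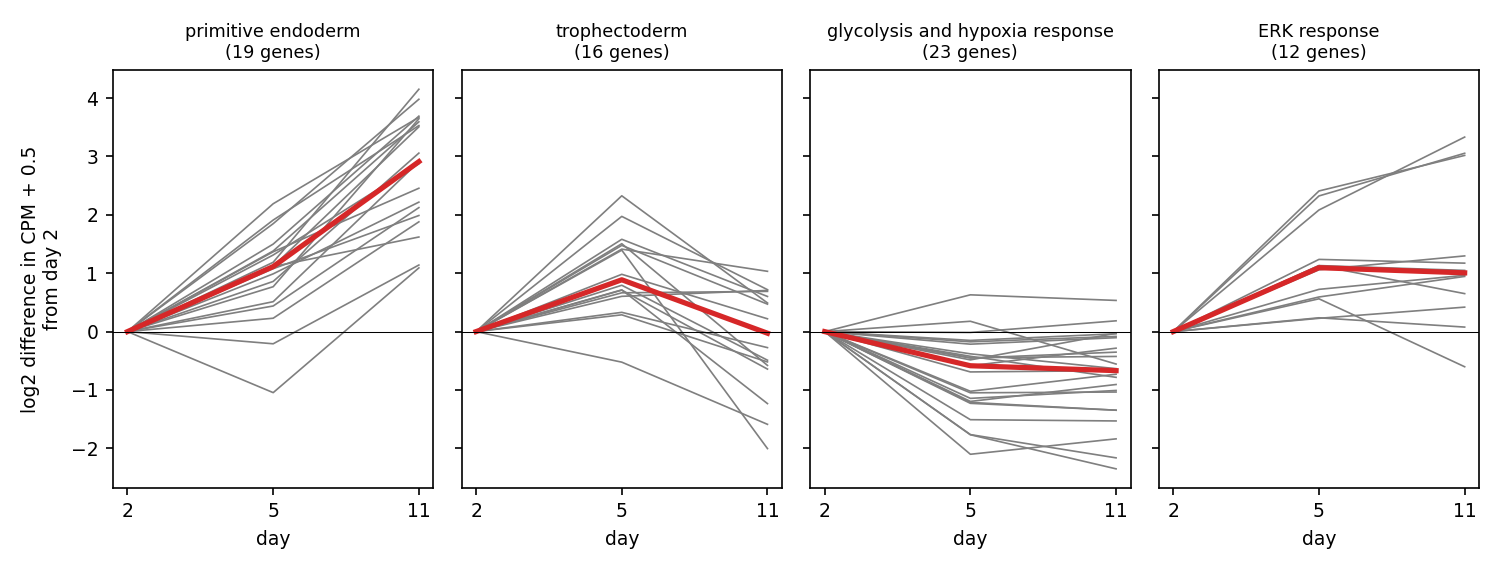
Log2 difference in CPM + 0.5 from day 2 (vertical) on days 2, 5 and 11 (horizontal) for the tested members of 4 lists, with 1 grey line a gene and the median of the list in red. The 19 primitive endoderm genes end above day 2, with a median of 2.91, 15 of the 16 trophectoderm genes go up to day 5 and 14 come down after it, and 21 of the 23 glycolysis and hypoxia genes lie below day 2 on day 5.

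Other late rising genes led the class by size. Pitx1, a homeobox factor of the hindlimb and pituitary, had 1.88, 9.95 and 90.3 CPM, a 48.2-fold difference between the ends (36.0 to 65.9, edgeR adjusted p-value 0.00150). Clic6, an intracellular chloride channel, had 1.92, 5.69 and 60.9 CPM (edgeR adjusted p-value 0.00762). Spock1, a secreted proteoglycan, had 0.775, 1.69 and 24.2 CPM (edgeR adjusted p-value 0.0215). Vcam1, a cell adhesion molecule, had 3, 7 and 355 counts, and so was 51.9-fold higher on day 11 than on day 5 (24.9 to 130.0), but it had too few counts on the first 2 days to enter the slope test. In the other libraries these 4 genes stayed low. Pitx1 was highest in the sorted cells there, at 6.71 CPM, and Vcam1 stayed under 1 CPM in all 5.

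The peak on day 5 held keratins and other genes of the trophectoderm list. Of its 16 tested members 15 were above their day 2 level on day 5, 14 were lower on day 11 than on day 5, and 5 were in the peak class (where 1.16% of all genes were), among them Hand1, Krt7, Krt18 and Krt19. The median log2 difference was 0.89 at the first step and -1.04 at the second, against 0.07 and -0.02 over all genes. In bulk samples a smaller share of TE-like cells and less RNA per cell cannot be told apart.

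Krt7, a keratin of simple epithelia and trophoblast, had 19.2, 98.3 and 27.2 CPM, and under 1 CPM in 2i and 2iJ. Day 5 stood 5.12-fold above day 2 (4.65 to 5.65) and 3.62-fold above day 11 (3.35 to 3.91). Krt19 had 25.0, 99.8 and 41.5 CPM. Krt18 had 161, 448 and 223 CPM, although reads of this gene can be shared with its pseudogenes. On day 11 these 3 keratins were still above their day 2 level.

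The transcription factors of the list were not alike. Cdx2, which specifies the TE, had 15.0, 30.1 and 17.5 CPM, above 2i (3.16 CPM) and 2iJ (4.13 CPM) on all 3 days. It was 2.01-fold higher on day 5 than on day 2 (1.78 to 2.27) and 1.72-fold lower on day 11 than on day 5 (1.54 to 1.91). The sorted cells, which had been chosen for the Cdx2 reporter, had 235 CPM. Gata3 had 15.7, 42.5 and 32.6 CPM, and was early rising. Elf5, a factor of trophoblast stem cells, stayed under 1 CPM on each day. Tcfap2c (Tfap2c), an AP-2 factor of trophoblast and germ cells, had 117, 81.4 and 38.6 CPM and fell (edgeR adjusted p-value 0.0229). It was the one member of this list that passed the slope test, of 20 that entered it (1.93% of all genes passed). Esx1, a homeobox gene of the placenta, had 37.9, 62.5 and 15.8 CPM.

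Hand1, a basic helix-loop-helix factor of trophoblast giant cells and of extraembryonic and heart mesoderm, had the largest fall after day 5 in this list. It had 37.5, 99.5 and 8.98 CPM, against 1.03 CPM in 2i and 7.67 CPM in 2iJ. Day 5 stood 2.65-fold above day 2 (2.46 to 2.86), and day 11 stood 11.1-fold below day 5 (9.79 to 12.6) and close to 2iJ. Its relative Hand2 had 2.73, 8.58 and 0.0651 CPM, the last of which rests on 2 counts (132-fold below day 5, with an interval of 36.2 to 1090.0). In mesoderm progenitors of day 4 Hand1 had 540 CPM and Hand2 had 406 CPM.

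**Figure D4:**
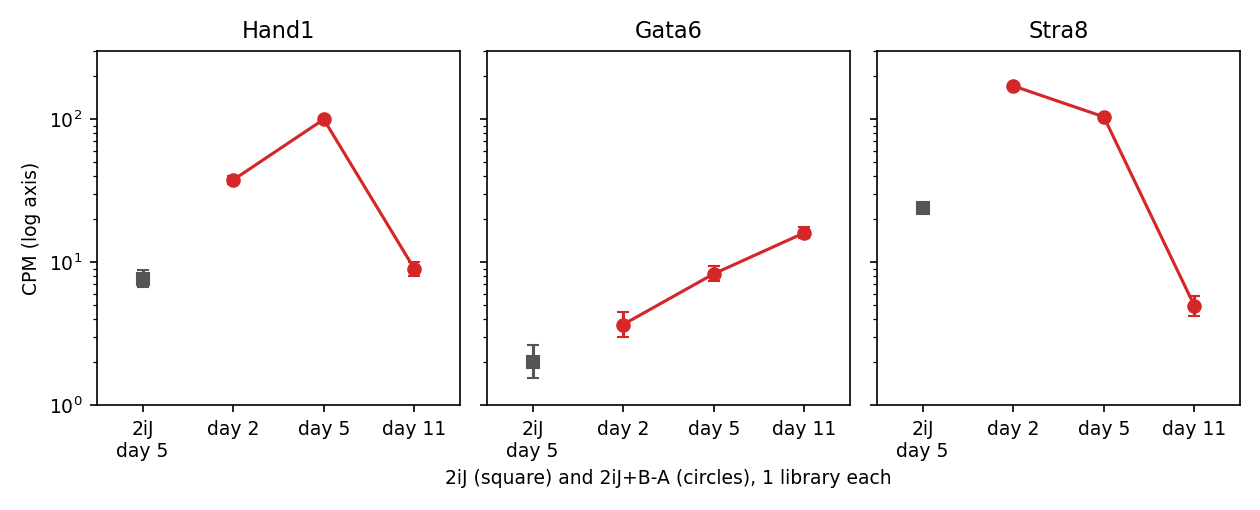
CPM on a log axis of Hand1, Gata6 and Stra8 in 2iJ on day 5 (square) and in 2iJ+B-A on days 2, 5 and 11 (circles), 1 library each, with 95% Wilson intervals that cover counting error only. Hand1 is highest on day 5 at 99.5 CPM, Gata6 is highest on day 11 at 16.0 CPM, and Stra8 is highest on day 2 at 170.5 CPM and lowest on day 11 at 4.95 CPM.

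Of 9 tested lateral and extraembryonic mesoderm genes, 6 were at least 2-fold higher on day 5 than on day 2 (5.83% of all genes), with a median log2 difference of 1.39, and 3 were at least 2-fold lower on day 11 than on day 5 (2.49%). In the classes 3 were late falling and 2 were early rising, and 1 of the early rising genes was also late rising. Hand1 and Hand2 were the 2 peak genes and were also among the 3 late falling genes. Msx1, a homeobox target of BMP, had 9.42, 6.96 and 1.89 CPM. Kdr, a receptor of vascular endothelial growth factor, had 2.65, 8.14 and 5.66 CPM. Of 18 primitive streak and nascent mesoderm genes 5 reached 5 CPM, and all 5 were above day 2 on day 5, 3 by at least 2-fold. Among them 3 were early rising, and 2 of these 3 were also late rising. Evx1 and Foxa2 passed the slope test, 2 of 14 members (1.93% of all genes). Evx1 did not pass with 2i and 2iJ in the fit. In that list the nascent mesoderm factors T and Mesp1 stayed under 1 CPM on each day, while they had 547 and 181 CPM in the mesoderm progenitors of day 3.

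The largest of the peak genes was skeletal actin. Acta1 had 4.93, 51.3 and 6.09 CPM, with day 5 standing 10.4-fold above day 2 (8.64 to 12.6) and 8.43-fold above day 11 (7.24 to 9.86). Nbl1, a secreted BMP antagonist, had 4.53, 18.6 and 4.10 CPM. Csf1, a cytokine of macrophages and trophoblast, had 4.77, 27.6 and 7.13 CPM. Man1c1, a mannosidase of the Golgi, had 5.67, 23.7 and 6.64 CPM, and Rgs5, a regulator of G-protein signalling, had 4.04, 14.5 and 2.12 CPM. The smooth muscle genes Acta2 (32.3, 200 and 70.3 CPM) and Tagln (27.9, 88.2 and 35.6 CPM) had the same shape. Both are also markers of fibroblasts, and the 11 genes of that list summed to 95.3, 376 and 155 CPM. Of these 11 genes 5 were tested. All 5 were above day 2 on day 5, 3 by at least 2-fold (5.83% of all genes), and all 5 were lower on day 11 than on day 5. Of the members under the limit of 5 CPM, Col1a1, Col3a1, Dcn, Lum and Postn stayed at or under 3.15 CPM on each day. The blood genes Ptprc, Hbb-b1 and Hbb-bh1 had no count.

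Imprinted genes were spread over several classes. Igf2, a fetal growth factor, had 710, 1779 and 750 CPM, and Cdkn1c, an inhibitor of the cell cycle, had 127, 343 and 93.6 CPM. Both peaked on day 5, as did Dlk1 (7.09, 20.5 and 5.18 CPM) and Nnat. In 2i and 2iJ they were lower, with 21.1 and 79.7 CPM of Igf2. The noncoding RNAs Meg3 (63.0, 83.0 and 181 CPM, edgeR adjusted p-value 0.0331) and Rian (93.0, 85.8 and 228 CPM) belong to the same imprinted domain as Dlk1 but were late rising. Phlda2, a gene that limits placental growth, had 141, 126 and 35.5 CPM. Of 20 tested imprinted genes, 6 were 2-fold higher on day 5 than on day 2 and 5 were 2-fold lower on day 11 than on day 5 (5.83% and 2.49% of all genes).

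Stra8 led the late falling genes. It is a gene induced by retinoic acid that starts meiosis in germ cells, and had 170.5, 104 and 4.95 CPM. Days 2 and 5 stood above 2i (22.6 CPM) and 2iJ (23.8 CPM), and day 11 stood below both. It was 1.64-fold lower on day 5 than on day 2 (1.57 to 1.72) and 20.9-fold lower on day 11 than on day 5 (17.8 to 24.8). Its slope did not pass (edgeR adjusted p-value 0.0772). The sorted cells of day 2 had 0.909 CPM. Few genes of the meiosis and germ line list did the same. Of 21 tested members 2 were late falling, Stra8 and Rec8 (0.78% of all genes), and 1 was early transient, Sycp3. Rec8, a meiotic cohesin, had 61.9, 42.5 and 20.8 CPM and fell (edgeR adjusted p-value 0.0285). Sycp3, a protein of the synaptonemal complex, had 27.3, 9.41 and 5.31 CPM and fell (edgeR adjusted p-value 0.0215). The median of the list was -0.24 at each step.

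The other genes of retinoic acid were divided. Of the 12 tested members of that list, Stra8 included, 6 were higher and 6 lower on day 11 than on day 5, with a median log2 difference of 0.02. Cyp26a1, the enzyme that breaks down retinoic acid, had 1.30, 2.42 and 25.2 CPM and rose (edgeR adjusted p-value 0.0247). Day 11 stood 10.4-fold above day 5 (8.24 to 13.4). Stra6, a receptor for retinol-binding protein, had 0.408, 3.37 and 10.1 CPM and rose (edgeR adjusted p-value 0.0178). Rbp4, the plasma carrier of retinol, had 0.938, 0.795 and 6.61 CPM. Dhrs3, which turns retinal back to retinol, and the receptor gene Rarg rose as well, and so 4 of 17 members passed the slope test (1.93% of all genes), all upward. Of 12 members tested for fold limits, 3 were late rising (1.47% of all genes) and 4 were early rising (3.55%), with Stra6 in both, and 1, Stra8, was late falling.

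Nodal and its antagonists went in opposite directions while the ALK5 inhibitor was present on all days. Lefty1 and Lefty2 are secreted antagonists of Nodal and are its direct targets. Lefty2 had 13.1, 4.26 and 0.0651 CPM, the last from 2 counts, against 400 CPM in 2i and 316 CPM in 2iJ. Lefty1 had 8.36, 3.31 and 0.195 CPM, against 141 and 189 CPM, and fell (edgeR adjusted p-value 0.0470; for Lefty2 it was 0.0521). Both were lower on each day than on the one before. Nodal itself had 45.4, 75.6 and 123 CPM and rose (edgeR adjusted p-value 0.0215), with 77.7 and 105 CPM in 2i and 2iJ. The summed level of the list was 399, 352 and 519 CPM in 2iJ+B-A and 1495 and 1389 CPM in 2i and 2iJ.

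The summed level of the BMP target list was 726, 786 and 664 CPM on days 2, 5 and 11, and 147 and 187 CPM in 2i and 2iJ. Id1 had 103, 110 and 132 CPM, against 5.12 and 11.8 CPM in 2i and 2iJ. The median log2 difference of the 16 tested members was 0.24 at the first step and -0.22 at the second, but 5 of the 16 were at least 2-fold higher on day 5 than on day 2 (5.83% of all genes) and were early rising, and 3 were at least 2-fold lower on day 11 than on day 5 (2.49%).

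The remaining late falling leaders had known roles outside meiosis. Bhmt, a methyltransferase of homocysteine, had 103, 39.6 and 9.24 CPM and fell (edgeR adjusted p-value 0.00502). Tgfbi, a matrix protein induced by TGF-beta, had 51.6, 33.4 and 8.92 CPM and fell (edgeR adjusted p-value 0.0285). Cyba, a subunit of NADPH oxidase, had 31.4, 33.8 and 7.06 CPM. The tight junction genes Cldn3 and Cldn7 were also late falling, with 2.31 and 8.98 CPM on day 11.

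A part of the glycolysis and hypoxia response list was early transient. Of 23 tested members of that list 21 were lower on day 5 than on day 2, 10 by at least 2-fold (0.96% of all genes), and 8 were early transient (0.762% of all genes). The median log2 difference was -0.58 at the first step and 0.02 at the second, so the level on day 11 was close to that on day 5. Of 24 members 3 passed the slope test, Aldoc, Pgk1 and Egln3, and all 3 fell (0.447% of all genes passed and fell).

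Bnip3, a mitochondrial protein of mitophagy that is induced by hypoxia, had 142, 32.7 and 39.4 CPM. Day 2 stood 4.34-fold above day 5 (4.05 to 4.66). Its levels in 2i and 2iJ on day 5, 139 and 147 CPM, were close to that of 2iJ+B-A on day 2. Egln3, an oxygen sensor that marks HIF for destruction and is itself induced by HIF, had 17, 4.64 and 2.93 CPM and fell (edgeR adjusted p-value 0.0304). Aldoc, an aldolase, had 22.6, 6.30 and 4.66 CPM and fell (edgeR adjusted p-value 0.0407). Pgk1 and Ldha, enzymes of late glycolysis, had 836, 356 and 328 CPM and 1437, 650 and 714 CPM. In 2iJ they had 1047 and 1508 CPM, and in 2i 899 and 1539 CPM. The summed level of the list was 15560, 10950 and 11520 CPM on days 2, 5 and 11, and 18540 and 18740 CPM in 2i and 2iJ on day 5. Days 5 and 11 of 2iJ+B-A were thus lower than all 3 other unsorted mESC libraries. Several of these enzymes have processed pseudogenes that can share reads.

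Hypoxia-inducible factors bind a short element with the core ACGTG. Promoters of 4 of the early transient genes of this list are shown with each match to ACGTG on either strand in capitals (RefSeq, GRCm38.p6, the same window as above).
Bnip3, chr7:138909457-138909756, minus strand: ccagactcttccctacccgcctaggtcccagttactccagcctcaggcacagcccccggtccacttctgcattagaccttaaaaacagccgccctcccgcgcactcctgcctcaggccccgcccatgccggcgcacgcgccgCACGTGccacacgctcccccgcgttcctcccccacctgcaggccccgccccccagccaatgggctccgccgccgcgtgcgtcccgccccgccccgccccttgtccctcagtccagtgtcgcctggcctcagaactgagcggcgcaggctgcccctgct
Egln3, chr12:54203825-54204124, minus strand: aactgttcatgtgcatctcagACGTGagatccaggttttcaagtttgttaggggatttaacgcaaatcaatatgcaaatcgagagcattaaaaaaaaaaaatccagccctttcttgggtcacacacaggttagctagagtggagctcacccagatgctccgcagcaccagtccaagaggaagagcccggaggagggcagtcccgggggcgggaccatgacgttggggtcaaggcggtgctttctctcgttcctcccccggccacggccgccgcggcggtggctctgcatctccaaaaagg
Pgk1, chrX:106186850-106187149, plus strand: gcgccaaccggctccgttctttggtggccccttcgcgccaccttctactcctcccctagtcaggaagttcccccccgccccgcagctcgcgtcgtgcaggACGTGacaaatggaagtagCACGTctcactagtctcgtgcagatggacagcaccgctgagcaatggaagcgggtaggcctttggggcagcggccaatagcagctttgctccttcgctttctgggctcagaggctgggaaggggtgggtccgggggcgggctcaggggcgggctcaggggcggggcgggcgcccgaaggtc
Ldha, chr7:46845554-46845853, plus strand: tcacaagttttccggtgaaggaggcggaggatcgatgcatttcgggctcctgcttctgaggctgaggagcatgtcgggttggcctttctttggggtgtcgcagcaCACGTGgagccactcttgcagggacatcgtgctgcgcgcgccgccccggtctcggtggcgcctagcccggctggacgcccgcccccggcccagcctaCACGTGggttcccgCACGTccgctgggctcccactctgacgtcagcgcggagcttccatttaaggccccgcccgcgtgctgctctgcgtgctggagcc

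The number of matches was 2 in Bnip3, 1 in Egln3, 2 in Pgk1 and 5 in Ldha, counted on both strands so that a CACGTG gives 2. Of the 8 early transient members of the list 6 held at least 1. Over all tested members of the list, whatever their class, ACGTG was in 11 of 21 promoters (52.4%). A promoter was found for 7939 of the 11148 genes tested, by symbol. ACGTG was in 26.9% of them, in 43.3% of 60 early transient genes, in 17.8% of 90 peak genes and in 16.5% of 103 late rising genes. Each CACGTG also holds ACGTG, and CACGTG was in 16.7% of early transient genes and in 872 of the 7939 genes tested. AGATAA, a site of GATA factors, was in 6.8% of late rising, 6.02% of early rising, 7.78% of peak, 9.43% of late falling and 11.7% of early transient genes. It was in 5.64% of all. TATAAA was in 12.6% of late rising and 12.0% of early rising genes, and in 6.34% of all. The median number of CpG pairs in the 300 bases was 11.5 in early transient genes and 15.0 in late rising genes, against 22.0 over all genes tested. These are counts of letters and not of bound sites.

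Early transient genes outside glycolysis were led by A2m and Dppa3. A2m (alpha-2-macroglobulin), a protease inhibitor, had 18.3, 4.01 and 3.58 CPM. Dppa3 (Stella), a maternal factor that protects methylation in the zygote, had 91.4, 22.0 and 23.9 CPM, and day 2 stood 4.16-fold above day 5 (3.82 to 4.53). Prdm1 (Blimp1), a repressor of germ cell precursors, had 9.46, 3.47 and 2.54 CPM, against 28.7 and 32.0 CPM in 2i and 2iJ. Zscan4c, a gene of 2-cell-like cells with near-identical copies, had 5.75, 2.19 and 1.24 CPM, against 91.6 and 85.4 CPM in 2i and 2iJ. None of these 4 genes passed the slope test on the 3 libraries. With 2i and 2iJ in the fit, A2m, Prdm1 and Zscan4c passed and Dppa3 did not.

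Early rising genes were the largest class, and a neurofilament and a posterior Hox gene were among its leaders. Serpinb9e, a serpin with near-identical relatives, had 1 count on day 2 and 13.1 and 9.64 CPM on days 5 and 11. Nefm, a neurofilament subunit, had 3.47, 38.0 and 78.1 CPM and rose (edgeR adjusted p-value 0.0174). Apol6 had 0.448, 7.31 and 13.5 CPM and rose (edgeR adjusted p-value 0.0440), and Sned1 had 1.96, 19 and 40.2 CPM and rose (edgeR adjusted p-value 0.0177). Hoxa10, a posterior Hox gene, had 1.06, 11.3 and 12.4 CPM. Ano1, a chloride channel gated by calcium, had 1.10, 12.0 and 11.1 CPM.

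Of the ERK response list some members were in this class, with the MEK inhibitor present on all days. All 12 tested members were above their day 2 level on day 5, 7 by at least 2-fold (5.83% of all genes), and 6 were early rising (3.55% of all genes). The median log2 difference was 1.09 at the first step and 0.21 at the second. The summed level of the list was 467, 782 and 929 CPM, and 776 and 761 CPM in 2i and 2iJ, so that day 2 was the lowest of the 5 unsorted mESC libraries. Etv1, an ETS factor, had 4.85, 26.3 and 44.0 CPM and rose (edgeR adjusted p-value 0.0209). Spry4, a feedback inhibitor of the pathway, had 0.571, 4.04 and 10.3 CPM and rose (edgeR adjusted p-value 0.0215). Etv4 had 0.815, 6.49 and 10.2 CPM. Ccnd1 (cyclin D1) had 101, 211 and 249 CPM and rose (edgeR adjusted p-value 0.0440), but it had 224 and 204 CPM in 2i and 2iJ. Day 2 was the lowest of the 5 unsorted mESC libraries for Ccnd1. The cyclin Ccnd2 had 8.64, 29.5 and 75.1 CPM and rose (edgeR adjusted p-value 0.00438), against 4.69 and 5.80 CPM in 2i and 2iJ.

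All 9 tested members of the DNA methylation list were above day 2 on day 5, with a median log2 difference of 0.36, but none by 2-fold, and from day 5 to day 11 5 were higher and 4 lower. The summed level was 1289, 1736 and 1953 CPM, and 1757 and 1810 CPM in 2i and 2iJ. Of the 9, 1 passed the slope test (1.93% of all genes). Dnmt3b, a de novo methyltransferase, had 83.3, 137 and 220 CPM and rose (edgeR adjusted p-value 0.0210, or 0.0790 with 2i and 2iJ in the fit, where the call was lost). Its cofactor Dnmt3l had 112.4, 117 and 255 CPM and was late rising. By contrast, 18 tested genes of cholesterol synthesis and 11 of the response to LIF had no member 2-fold apart between any 2 days.

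Of the 8 genes that were low on day 5 alone, 3 were protein coding. Fut9, which makes the SSEA-1 antigen, had 11.5, 4.61 and 11 CPM. Aire, an autoimmune regulator that mESCs express, had 17.8, 6.90 and 15.9 CPM. Hnf4a, a nuclear receptor of visceral endoderm, had 5.58, 2.45 and 12.5 CPM. Fut9 and Aire had more in 2i and 2iJ, between 38.3 and 51.6 CPM.

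The classes were then followed in the libraries that had no part in their choice, each set against 2iJ. Peak genes passed the CPM limit through day 5 of 2iJ+B-A, where 91.5% of them were at least 2-fold above 2iJ (8.89% of all genes). The shares over all genes are not matched for the level in 2iJ, so the shares below are descriptions. Of the 129 peak genes 67 (51.9%) were at least 2-fold higher than 2iJ in the sorted cells, and 82 (63.6%) and 74 (57.4%) in mesoderm progenitors of days 3 and 4. Over all genes tested these shares were 13.9%, 12.1% and 15.5% (0.269% in 2i, where 0.852% were lower). Early transient genes were mostly lower in the mesoderm progenitors, 58.8% of them on day 3 and 48.2% on day 4, where 13.5% and 15.4% of all genes were. Late rising genes were split, with 31.7% higher and 30.5% lower on day 3 and 29.9% and 37.2% on day 4. In the sorted cells 28.7% of late rising genes were higher and 21.3% were lower, where 13.3% of all genes were lower. The sorted library differs in line, in sorting and in quality, with 29.7% of its read pairs unmapped, and the 2 mesoderm libraries are of another protocol and of other days.

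**Figure D5:**
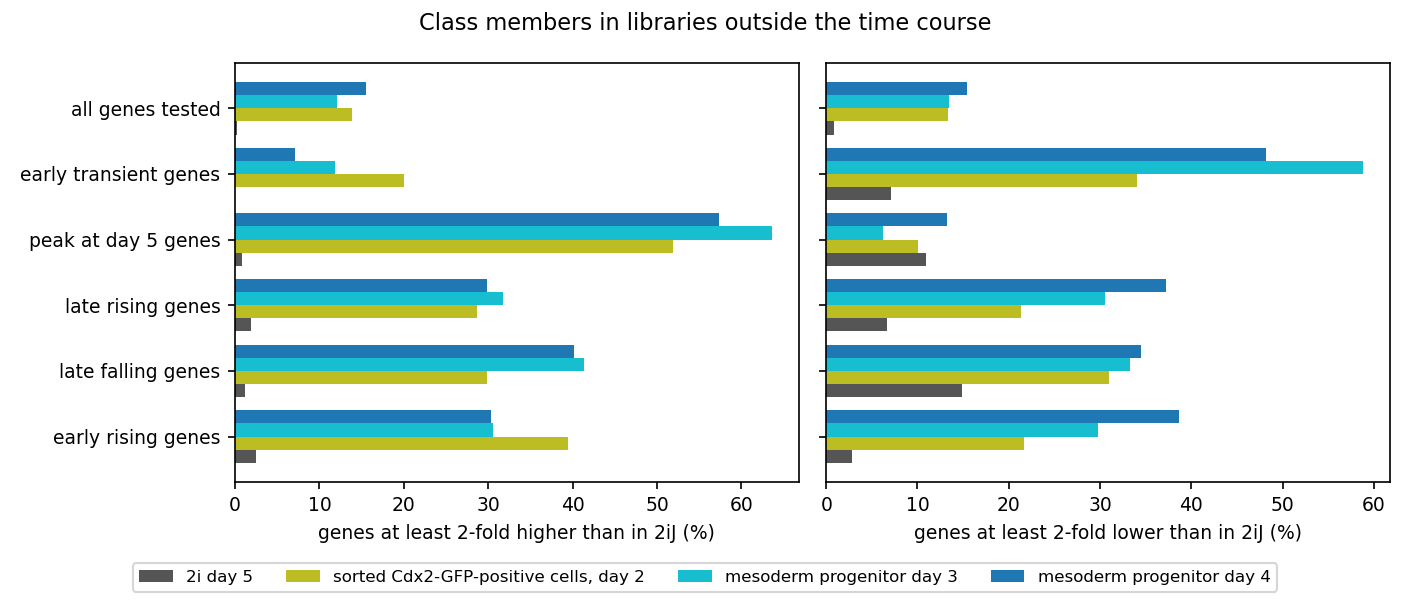
Share of genes (%) at least 2-fold higher (left) or lower (right) than in 2iJ on day 5, for 5 classes of the time course and for all genes tested, in the 4 libraries named in the key, 1 library each. Peak genes reach 63.6% higher in mesoderm progenitors of day 3, and early transient genes reach 58.8% lower there.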

How the data were processed

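RNA of 8 frozen cell pellets was extracted together and sequenced as poly-A, strand-specific, paired-end libraries. The authors trimmed the reads with cutadapt and aligned them with STAR (2.4.2a, NCBIM37, per the labels), and deposited raw read counts per gene, of which the column for the reverse strand was used. The annotation release is not given in the sources used here. CPM was computed over the 37620 gene rows, and rows for unmapped, multimapping or unassigned reads were left out of totals (unmapped pairs made up 2.17% to 3.10% in the 3 libraries of 2iJ+B-A). Genes with 5 CPM on at least 1 day were compared on log2(CPM + 0.5) with a 2-fold limit. Ratio intervals (exact, conditional on the sum of the counts) and Wilson intervals are at 95% and cover counting error only, and the limit of a count of 0 is 3 counts (0.0954 to 0.122 CPM).

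The slope on log2(day) was fitted with edgeR 4.0.16 (quasi-likelihood, Benjamini-Hochberg) on genes with 10 counts in at least 2 libraries, and with DESeq2 1.42.0. On simulated counts of the 3 libraries (15675 genes), 91 of 100 genes with a slope of 1 and 100 of 100 with a slope of 2 were recovered, with 13 false calls. The simulation gave every gene the same dispersion and put every change exactly on the line, so it does not measure the error rate in these data. Python 3.11.15, pandas 2.3.3, scipy 1.17.1 and R 4.3.3 were used.

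The members and the 24 gene lists were chosen with earlier results of these data known. Named were Hand1, Gata6 and Stra8, up to 6 members of each list with a 2-fold difference by the largest difference, defining members, and the 6 protein-coding genes of each class with the largest smaller step. Other genes in the text were chosen after their values were seen. Promoters are from RefSeq (GRCm38.p6). Alternatives were other scalings, pseudocounts and CPM limits, and other libraries in the slope fit. Some genes are not reported here.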

Additional observations from a re-analysis of the deposited data

How the results depend on the processing

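The log2 differences of Hand1, Gata6 and Stra8 kept their sign under the alternatives tried for them. Counts of genes were compared by size alone, and 48 of 78 alternative counts stayed within 1.5 times the reported count. With no minimum CPM, the genes 2-fold apart between days 2 and 5, 5 and 11, and 2 and 11, and between 2i and 2iJ, numbered 1184, 766, 1810 and 265, and there were 161 early transient and 162 late falling genes. With a minimum of 20 CPM these 4 comparisons gave 352, 193, 528 and 29, and the classes held 29 early transient, 58 peak, 64 late rising, 36 late falling, 199 early rising genes and 1 gene low on day 5. With a pseudocount of 2, 504 genes were apart between days 2 and 5 and 63 between 2i and 2iJ, and there were 44 early transient, 85 peak, 48 late falling and 244 early rising genes and 2 low on day 5. The slope test called 580 genes with DESeq2, 528 with size factors, 1371 with no filter, 78 with a slope on the day itself, 465 with 5 libraries and 0 with all 8 in edgeR (1004 at an unadjusted p-value under 0.05), or 469 without the mesoderm library of day 4, an alternative chosen after seeing the data. With 5 libraries Gata6 (adjusted p-value 0.0798) and Dnmt3b (0.0790) lost their call. The 17 late rising primitive endoderm genes were 17 in all settings but a minimum of 20 CPM (11 of 12), a pseudocount of 2 (14) and no minimum (18 of 22). No paired analysis was possible because each group has 1 library, and leaving out a day leaves no residual degree of freedom. The depth sets the counting error alone, and with 1 library a day the spread between cultures is unknown.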

Other observations

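Some gene groups that no list held stood together in the classes, and they were chosen after their values were seen, so that their counts are descriptions. Of 14 tested genes of the contractile and actin-bound apparatus, 9 were in the peak class of day 5 (1.16% of all genes). Tpm2, a tropomyosin, had 17.2, 56.4 and 16.8 CPM on days 2, 5 and 11, and Cnn1 (calponin) had 5.01, 11.5 and 1.69 CPM. Flnc, an actin crosslinker, had 24.2, 56.6 and 21.9 CPM. The cytoskeletal actin Actb was in no class, with 1965, 2819 and 2387 CPM.

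All 3 neurofilament genes were early rising (3.55% of all genes). Nefl had 5.95, 31.4 and 47.9 CPM and rose (edgeR adjusted p-value 0.0247), against 20.7 and 11.8 CPM in 2i and 2iJ. Nefh had 9.17, 20.3 and 20.2 CPM, and stayed on each day below 2i (39.1 CPM) and 2iJ (28.5 CPM). Nefm had 8.53 and 4.24 CPM in 2i and 2iJ, below its days 5 and 11. Of 7 tested genes that modify or fold collagen 3 were late rising (1.47% of all genes), and 1 passed the slope test (1.93%). Plod2, a lysyl hydroxylase, had 69.5, 59.0 and 191 CPM. P4ha2, a prolyl hydroxylase, had 21.9, 21.7 and 70.5 CPM, and Loxl2, which crosslinks collagen IV, had 21.4, 22.1 and 124.9 CPM. The gene that passed, the collagen chaperone Serpinh1, had 86.3, 167 and 318 CPM and rose (edgeR adjusted p-value 0.00762).

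Of 6 tested Xlr genes of the X chromosome 5 were late rising (1.47% of all genes), and Xlr3a had 9.21, 19.5 and 44.6 CPM. These copies are near-identical, so their reads can be split between them and they are not independent members. Of 6 tested glutathione transferases 3 were early transient (0.762% of all genes), and none of the 3 passed the slope test on the libraries of 2iJ+B-A. With 2i and 2iJ in the fit, Gstt2 passed, and Gstm3 and Gstt1 did not. Gstm3 had 6.85, 1.37 and 1.24 CPM, and Gstt2 had 9.86, 3.66 and 2.05 CPM.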
